A study of Arabidopsis thaliana with 44 samples.

Results

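Transcript levels were compared between both wild types of a study of ARGONAUTE proteins in the Arabidopsis thaliana shoot apex, wt21 and wt col-0. All 16 libraries with these labels were used, of 44 in the study, 8 of each wild type. Each wild type has replicates 1 to 4 and replicates 5 to 8, here called the first and the second set. Both carry the ecotype label Col-0 and came from seedlings on soil under 16 h of light and 8 h of dark, with shoot apices taken 7 days after germination. What sets wt21 apart from wt col-0, what the sets stand for and how many plants a library pools is not stated in the labels, so p-values measure only the spread between these libraries, which may be technical. Total RNA was sequenced by Smart-seq3, in which whole transcripts are copied into cDNA.

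The shoot apex holds the stem cells that form all organs above ground, together with young leaf primordia that are turning green. Green tissue spends much of its RNA on antenna and photosystem proteins, and its growth depends on carbon and mineral supply. Phosphate shortage, for example, turns on a set of genes through the transcription factor PHR1, which binds the promoter motif known as P1BS, and carbon shortage turns on genes downstream of the kinase SnRK1.

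Levels are given as CPM (counts set to equal library totals, with TMM factors), and differences as log2 fold changes of wt21 over wt col-0 with approximate standard errors (SE). The SE was worked back from edgeR's quasi-likelihood test, as the absolute log2 fold change over the square root of the test's F value. A feature was called at a Benjamini-Hochberg adjusted p under 0.05 over 16133 features tested. Library totals were 4985458 to 6577648 counts in the first set and 7529636 to 10168438 in the second. The 5 shoot apex markers (STM, KNAT1, CLV3, WUS and CUC2) summed to 10.2 to 19.6 CPM, mostly from STM and KNAT1. STM and KNAT1 had 296 and 529 counts over the wt21 libraries and 356 and 651 over wt col-0. CUC2, CLV3 and WUS had only 22, 7 and 1 over wt21 and 30, 13 and 0 over wt col-0. At 0 in every library were 3 of 5 root markers, 3 of 5 seed storage markers and 2 of 4 floral organ markers. The other floral markers, PI and SEP3, were above CUC2, CLV3 and WUS, with 61 and 107 counts over wt21 and 61 and 142 over wt col-0. AGO4 and DDM1, whose loss defines mutant groups of the study, were not called between the wild types with set as a term (log2 fold changes 0.07 ± 0.10 and -0.18 ± 0.11, SE, n = 8 and 8, edgeR adjusted p = 0.85 and 0.588). The mCherry reporter sequence had 34 counts over the wt21 libraries, 11 in the first set and 23 in the second. In wt col-0 it had 0 of 60916075 counts, which allows up to 0.0492 CPM of total counts (3 counts, counting error only).

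With replicate set as a term, wt21 differed from wt col-0 at 34 features, 0.211% of those tested. Of these, 24 were higher in wt21 (0.149%) and 10 were lower (0.062%), and 0 of 137 transposable elements tested were called (15 had an unadjusted p under 0.05). The higher group holds light-harvesting and photosystem genes, jasmonate synthesis genes and ESM1. The lower group holds 3 genes of the phosphate starvation response, LSU1 of the response to low sulphur, and AO, an enzyme of NAD synthesis. Within the second set alone, 193 features were called (1.2% of those tested), 142 higher (0.88%) and 51 lower (0.316%) in wt21. Within the first set 0 were called by edgeR or limma voom and 12 by DESeq2, while 934 had an unadjusted p under 0.05 in edgeR. The difference between the sets in the wt21 effect, tested itself, was called for 10 features (0.062%), 8 of them with a more positive effect in the second set (0.0496%) and 2 with a more negative one (0.0124%), so for most features called in the second set a difference from the first was not shown. The count of 34 ranged from 8 (without wt21 replicate 7) to 116 (without wt21 replicate 3) when 1 library was left out, and 13 of 16 such omissions moved it by over 1.5 times. DESeq2 called 176 features and the fit without the set term 0.

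Of the 34 features, 33 had the same direction in both sets, 28 were also called within the second set in the same direction, and 0 were called for the difference between the sets. Over all 16 libraries the CPM ranges of the wild types did not overlap for 5 features that were higher in wt21 (0.031%) and for 3 that were lower (0.0186%). ESM1, AT3G16670 and AT4G02630 are the called genes among them. Within the first set alone 267 features did not overlap with wt21 higher (1.65%) and 264 with wt21 lower (1.64%), and within the second 776 (4.81%) and 534 (3.31%). The numbers without overlap in both sets were 21 (0.13%) and 14 (0.0868%).

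ESM1 (AT3G14210) is the epithiospecifier modifier, which shifts the breakdown of glucosinolates, the mustard oil precursors, away from nitriles. ESM1 in the first set was at 43.4, 53.0, 47.5 and 54.7 CPM in wt col-0 and at 70.4, 67.7, 71.0 and 73.8 CPM in wt21. The second set had it at 34.4, 35.8, 35.0 and 32.6 CPM in wt col-0 and at 57.9, 59.0, 63.1 and 63.1 CPM in wt21. Every wt21 library was therefore above every wt col-0 library, although both wild types were lower in the second set. The set-adjusted log2 fold change was 0.67 ± 0.07 (SE, n = 8 and 8, edgeR adjusted p = 4.88e-05), with 0.51 ± 0.09 in the first set (not called, adjusted p = 0.201) and 0.82 ± 0.09 in the second. The log2 fold change stayed between 0.64 and 0.70 under every alternative, but the set-adjusted call was lost without the set term and, as was the second-set call, when all 44 libraries shared 1 estimate of spread (adjusted p = 0.411 and 0.476). Of 15 aliphatic glucosinolate genes tested, ESM1 was the only one called with set as a term, where 0.149% of all features were called higher. The median of the list was 0.06 against 0.00 over all features.

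AT3G16670 and its neighbour AT3G16660 on chromosome 3 were both higher in wt21. AT3G16670 was at 12.4, 13.3, 19.7 and 21.2 CPM in wt col-0 and 23.9, 25.4, 28.3 and 31.0 CPM in wt21 in the first set. The second set had it at 13.9, 13.2, 7.10 and 9.88 CPM in wt col-0 and 25.2, 28.5, 28.1 and 38.0 CPM in wt21. The ranges did not overlap in either set, and the set-adjusted log2 fold change was 1.09 ± 0.15 (SE, n = 8 and 8, edgeR adjusted p = 0.00151). AT3G16660 overlapped between the wild types in the first set (9.53 to 16.0 CPM in wt21, 4.26 to 10.4 in wt col-0) and not in the second (13.6 to 19.9 against 5.06 to 7.82). Its set-adjusted change was 0.99 ± 0.16 (adjusted p = 0.00815). Calls were spread over the chromosomes: 10 of the 34 lay on chromosome 3, which carries 19.7% of the features tested, and 9 on chromosome 1, which carries 25.7%.

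LOX2, the lipoxygenase that starts jasmonate synthesis in plastids, was higher in wt21 in both sets. In the first set it was at 41.9, 30.1, 36.1 and 20.4 CPM in wt col-0 and 86.7, 45.6, 58.5 and 67.8 CPM in wt21, and in the second at 14.8, 10.7, 14.0 and 7.85 CPM in wt col-0 and 22, 20.9, 38.0 and 28.0 CPM in wt21. Within each set the wild types did not overlap, and both wild types were lower in the second set. The set-adjusted log2 fold change was 1.11 ± 0.16 (edgeR adjusted p = 0.00151). AOC2, the allene oxide cyclase a few steps further on, changed by 1.11 ± 0.23 (adjusted p = 0.0368). The set-adjusted call of AOC2 was lost under 15 of 27 alternatives, among them all 44 libraries in the fit. AOC2 overlapped between the wild types in the first set and was at 7.00 to 13.2 CPM in wt21 against 2.64 to 3.48 CPM in wt col-0 in the second. Of 13 jasmonate genes tested, a list assembled after values were seen, these were the 2 that were called, and the list had a median of 0.27. With set as a term, 0.149% of all features were called higher and their median was 0.00.

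**Figure D1:**
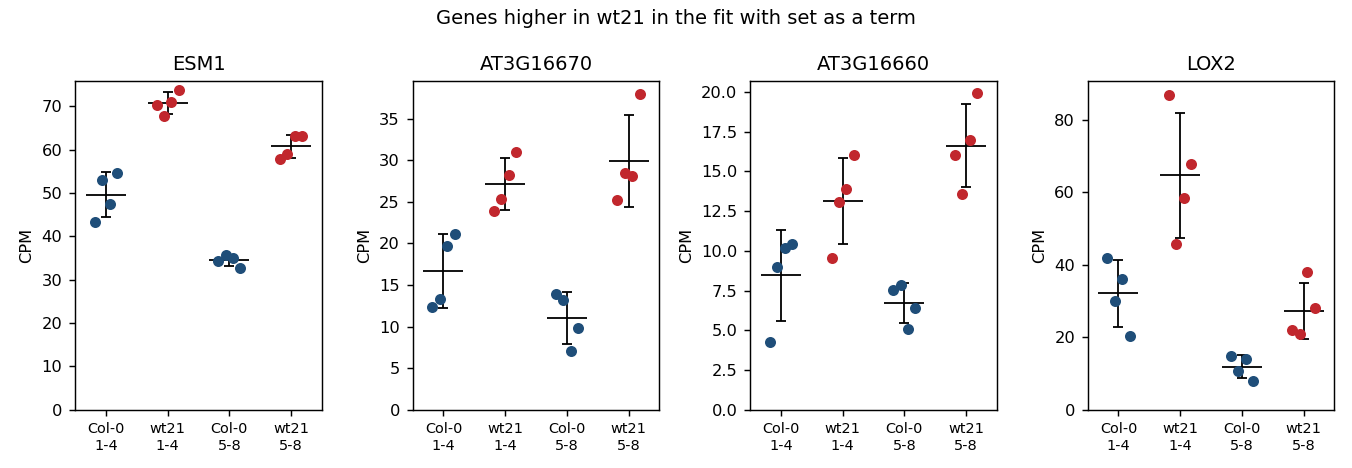
Level in CPM (vertical axis, from 0) of ESM1, AT3G16670, AT3G16660 and LOX2 in each library, by wild type and replicate set (horizontal axis). Points are libraries, horizontal bars are means and error bars SD (n = 4), and every ESM1 point of wt21 (57.9 CPM or more) lies above every ESM1 point of wt col-0 (54.7 CPM or less).

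The phosphate starvation genes SPX1 and SRG3 had the largest changes among the 34 calls with set as a term. The difference of SPX1 lay in the second set. For SRG3 the wild types did not overlap in either set, by a very narrow gap in the first, and the change passed the test in the second. SPX1, an inhibitor of PHR1 that is itself turned on when phosphate is short, was at 1.42, 2.1, 1.97 and 0.578 CPM in wt col-0 and 1.91, 0.726, 0.914 and 1.11 CPM in wt21 in the first set. SPX1 in the second set was at 11.3, 44.1, 20.7 and 45.3 CPM in wt col-0 and at 4.06, 2.55, 1.17 and 1.75 CPM in wt21. Levels in wt col-0 were thus above all other libraries only in the second set, and second-set wt21 stayed near the first-set levels of both. The second-set log2 fold change was -3.66 ± 0.38 (SE, n = 4 and 4, edgeR adjusted p = 1.48e-05) and the first-set one -0.39 ± 0.70 (not called).

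SRG3, a glycerophosphodiester phosphodiesterase that frees phosphate from lipid remnants, was at 2.46 to 3.45 CPM in wt col-0 and 0.545 to 2.44 CPM in wt21 in the first set. There 3 counts amount to 0.52 to 0.685 CPM in wt21, so the gap between 2.44 and 2.46 CPM is smaller than that. Second-set levels were 56.3, 97.6, 59.1 and 71.0 CPM in wt col-0 and at 9.55 to 23.0 CPM in wt21. Here second-set wt21 also lay above both first-set groups, but below every second-set wt col-0 library (-2.20 ± 0.22, adjusted p = 1.21e-05). The counts of SRG3 were not whole in any of the 16 libraries, and how reads were divided between features is not given in the sources used here. PAP17, a purple acid phosphatase, was at 37.6, 80.7, 43.7 and 63.1 CPM in second-set wt col-0 and at 23.5, 16.2, 10.8 and 12.3 CPM in second-set wt21, against at most 2.22 CPM in the first set (-1.84 ± 0.22 in the second set, adjusted p = 5.07e-05). Its first-set change had the opposite sign (0.63 ± 0.52, not called), and its set-adjusted call (-1.49 ± 0.27, adjusted p = 0.0196) was lost by DESeq2, by robust quasi-likelihood, with the replicate block, without the set term and without wt col-0 replicate 6 or 8 or wt21 replicate 6, 7 or 8 (highest adjusted p = 0.685). G3Pp1, a glycerol-3-phosphate permease that was not on the phosphate list, went the same way in the second set (9.55 to 15.2 CPM in wt21 against 21.5 to 53.9 in wt col-0). G3Pp1 changed by -1.69 ± 0.22 in the second set and 0.23 ± 0.30 in the first, and the difference between sets was -1.93 ± 0.37 (adjusted p = 0.0397).

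The promoters of SPX1 and SRG3 are shown with the PHR1 motif marked, since these phosphate genes differed most. They are the 250 bases before the annotated start in RefSeq assembly TAIR10.1, written 5′ to 3′ on the gene's strand, with matches to GNATATNC, a motif that reads the same on both strands, in capitals.
SPX1 (chr5:6802032-6802281, plus strand): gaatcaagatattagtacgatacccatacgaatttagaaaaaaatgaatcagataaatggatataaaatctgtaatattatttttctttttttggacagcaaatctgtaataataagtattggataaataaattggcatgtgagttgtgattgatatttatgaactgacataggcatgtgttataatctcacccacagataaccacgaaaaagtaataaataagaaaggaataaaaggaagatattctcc
SRG3 (chr3:350011-350260, minus strand): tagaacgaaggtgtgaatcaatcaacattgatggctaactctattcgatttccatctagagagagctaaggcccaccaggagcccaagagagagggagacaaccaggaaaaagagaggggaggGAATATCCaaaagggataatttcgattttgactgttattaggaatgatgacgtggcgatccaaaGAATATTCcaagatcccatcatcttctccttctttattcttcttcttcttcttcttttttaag
SRG3 had 2 matches, whose first bases lay at -127 and -63 from the start, and SPX1 had 0 in this window. PAP17 and G3Pp1 had 0 as well. Of 27443 windows of this length, 5.46% held the motif, as did 5 of the 25 windows of the listed phosphate genes. A match is a description of the letters and says nothing of binding in these libraries.

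The remaining phosphate genes did not pass the test. Of 25 listed, 18 passed the filter on low counts, 3 were called lower and 0 higher, both with set as a term and in the second set (0.316% of all features were called lower there). The median of the 18 in the second set was -0.19 against 0.00 over all features. PS2, a phosphatase, had -1.16 ± 0.42 in the second set and was not called, PHR1 had 0.36 ± 0.13, and the transporter PHT1;1 had -0.23 ± 0.47. The calls of SPX1 and SRG3 in the second set held under all 27 alternatives.

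**Figure D2:**
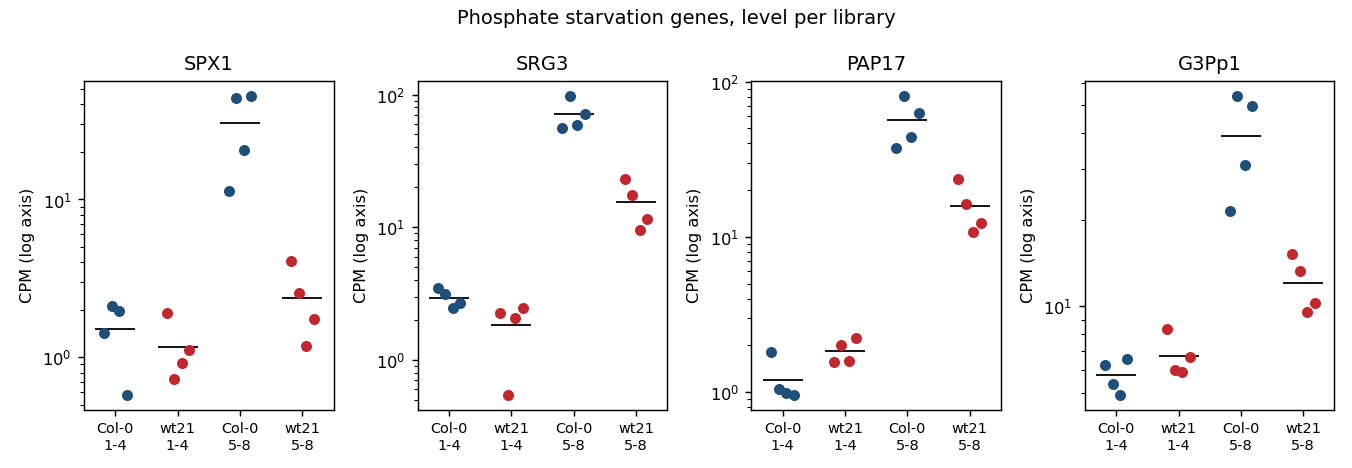
Level in CPM (vertical log axis) of SPX1, SRG3, PAP17 and G3Pp1 in each library, by wild type and replicate set (horizontal axis). Points are libraries and bars are means (n = 4), and for each gene every second-set wt col-0 library lies above every other library.

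Further genes were called with set as a term outside these groups. AO, an L-aspartate oxidase, was at 3.65, 6.44, 4.27 and 4.62 CPM in wt col-0 and 2.95, 3.45, 3.43 and 1.11 CPM in wt21 in the first set, and at 10.8, 15.8, 13.0 and 16.9 CPM and 9.87, 7.32, 6.79 and 6.23 CPM in the second. Each set was free of overlap, though the first-set gap (3.65 against 3.45 CPM) was smaller than 3 counts (0.52 to 0.685 CPM in first-set wt21). The changes of AO were -0.79 ± 0.29 and -0.90 ± 0.21 (set-adjusted -0.87 ± 0.17, edgeR adjusted p = 0.0324). AT1G72430 changed by -1.12 ± 0.32 and -1.04 ± 0.29 and AT2G41410 by -0.76 ± 0.15 and -0.37 ± 0.14 in the first and second set, and neither was called within a set. BBD1, a nuclease of basal defence, changed by 0.44 ± 0.17 and 1.30 ± 0.18 with no overlap in either set (set-adjusted 0.84 ± 0.15, adjusted p = 0.0196).

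Other nutrient genes in the same second-set pattern were PYE and LSU1. PYE, a transcription factor of the iron deficiency response, was at 21.5, 28.5, 34.1 and 39.9 CPM in second-set wt col-0 and 13.8, 7.85, 9.34 and 4.09 CPM in second-set wt21. PYE went the other way in the first set, at 3.45, 2.55, 2.14 and 3.28 CPM in wt col-0 and 7.28, 3.99, 4.11 and 5.10 CPM in wt21. The wild types did not overlap in either set, in opposite directions. The second-set change of PYE was -1.82 ± 0.24 (SE, n = 4 and 4, edgeR adjusted p = 0.000216), the first-set change was 0.88 ± 0.37 (not called), and the difference between sets was -2.69 ± 0.44 (adjusted p = 0.0185). Of 8 iron genes tested, PYE was the one that was called, and the second-set median of the list was -0.13. In that set 0.316% of all features were called lower and their median was 0.00. LSU1 was at 24.9 to 35.5 CPM in second-set wt col-0 and 2.14 to 15.2 CPM in second-set wt21, with at most 2.84 CPM in any first-set library (set-adjusted -1.67 ± 0.35, adjusted p = 0.0446). The set-adjusted call of LSU1 was lost under 17 of 27 alternatives, among them DESeq2, robust quasi-likelihood and all 44 libraries in the fit.

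Of 23 nuclear photosynthesis genes, 2 were called higher in wt21 with set as a term and 8 within the second set. Of all features, 0.149% and 0.88% were. LHCB2.1, an antenna protein of photosystem II, was at 2540, 2640, 3600 and 3020 CPM in wt col-0 and 4300, 4190, 3000 and 3730 CPM in wt21 in the first set. Levels in the second set were 1220, 1140, 1190 and 678 CPM in wt col-0 and 1920, 2070, 2320 and 2370 CPM in wt21. The wild types overlapped in the first set, where wt21 replicate 3 lay below wt col-0 replicates 3 and 4, and not in the second. The change of LHCB2.1 was 1.04 ± 0.16 in the second set (SE, n = 4 and 4, edgeR adjusted p = 0.00107) and 0.37 ± 0.16 in the first (not called). Its counts and those of the adjacent LHCB2.2 were not whole in any library, so the level of each of these near copies is uncertain. LHCB2.3, whose counts were whole, changed by 1.38 ± 0.18 in the second set (adjusted p = 0.000176).

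Of 23 genes on the nuclear photosynthesis list, all tested, 23 had a positive change in each set. Of all features, 50.6% were positive in the first set and 50.4% in the second. In the second set 8 were called higher (0.88% of all features were) with a median of 0.62, and in the first 0 were called by edgeR (1 had an unadjusted p under 0.05) with a median of 0.24. The difference between the sets was called for 0 of the 23 by edgeR (5 had an unadjusted p under 0.05). The second-set calls were of antenna genes of both photosystems (LHCB2.1, LHCB2.2, LHB1B1, LHCB3, LHCB5, LHCA1 and LHCA4) and of RCA, the activase of Rubisco. LHB1B1, LHCB3, LHCB5, LHCA1, LHCA4 and RCA each lost this call without wt col-0 replicate 8. Each also lost it with all 44 libraries in the fit and with the replicate block. LHCB2.1 and LHCB2.2 kept it under all 27 alternatives. The share of all features called higher was 0.88% in the second set and 0.149% with set as a term. Among 40 photosystem and antenna genes taken by their RefSeq symbols, a list formed after values were seen, 16 were called higher in the second set and 8 with set as a term, and 0 were lower. This list shares members with the 23, among them the called LHCB2.1, LHCB2.2, LHCB3, LHCB5, LHCA1 and LHCA4, so the 2 lists are not separate evidence. PSAD-2 of photosystem I, not among the 23, was one of the 16 (1.10 ± 0.18 in the second set, adjusted p = 0.00213). Chloroplast-encoded genes had 72 of 86 positive set-adjusted changes with a median of 0.22, against 50.3% of all features. Of the 86, 0 were called (21 had an unadjusted p under 0.05). Summed levels of the 23 genes were 196000 to 264000 CPM in first-set wt21 and 182000 to 220000 in first-set wt col-0, against 150000 to 189000 and 93800 to 137000 in the second set. The lowest sum belonged to wt col-0 replicate 8. In whole apices, fewer green cells and less of this RNA per cell cannot be told apart.

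**Figure D3:**
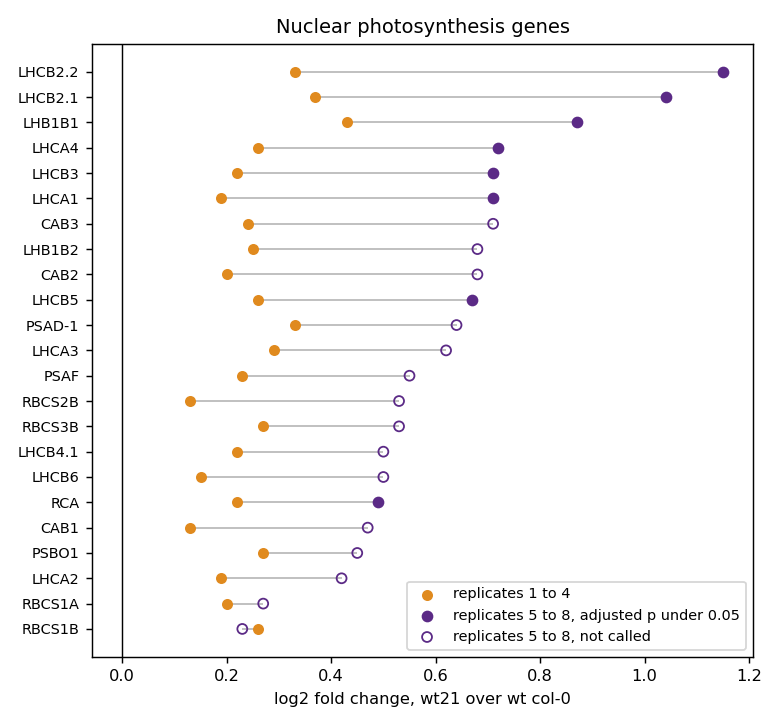
log2 fold change of wt21 over wt col-0 (horizontal axis) for the 23 nuclear photosynthesis genes (vertical axis) in replicates 1 to 4 and in replicates 5 to 8. All points lie above 0, and filled second-set points mark the 8 genes with an edgeR adjusted p under 0.05.

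Of 7 genes tested that are known to be turned on by darkness and carbon shortage, 2 were called higher in wt21 in the second set. The share called higher over all features was 0.88%. DRM1, a dormancy-associated gene, was at 9.43, 5.75, 4.94 and 4.67 CPM in wt col-0 and 14.6, 20.5, 29.8 and 25.6 CPM in wt21 there, a change of 1.86 ± 0.34 (SE, n = 4 and 4, edgeR adjusted p = 0.00421). The second-set wild types did not overlap for DRM1. Its first-set levels were 83.7, 73.5, 25.8 and 27.4 CPM in wt col-0 and 36.9, 45.4, 59.6 and 58.1 CPM in wt21, which overlapped. The other gene called was AKINBETA1, a subunit of SnRK1 (0.75 ± 0.18, edgeR adjusted p = 0.043). The list's median was 0.96 there and -0.08 in the first set. All 7 had a positive difference between the sets, against 51.1% of all features. Of these 7 differences, 0 were called by edgeR (5 had an unadjusted p under 0.05).

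TPS9, a class II trehalose phosphate synthase, was at 11.5, 5.94, 8.07 and 7.54 CPM in wt col-0 and 21.1, 17.0, 20.7 and 16.6 CPM in wt21 in the second set. The first set had it at 27.6, 31.1, 23.7 and 26.6 CPM and at 18.5, 22.3, 25.1 and 27.5 CPM. The wild types overlapped only in the first set. The second-set change of TPS9 was 1.19 ± 0.17 (edgeR adjusted p = 0.000388) and the difference between sets 1.42 ± 0.24 (adjusted p = 0.0185). Its paralogue TPS11 changed by 1.38 ± 0.28 in the second set (adjusted p = 0.0123). Of 7 genes of this class, a list formed after values were seen, these 2 were called higher in the second set (0.88% of all features were). ATG8E and ATG8F, which tag membranes for autophagy, were 2 of 7 ATG8 genes called higher in the second set (1.12 ± 0.18 and 0.69 ± 0.15). This list too was formed after values were seen, and 0.88% of all features were called higher there. All 7 were positive in the second set, against 50.4% of all features, but from only 0.002 upwards and with a median of 0.20. An unadjusted p under 0.05 was reached by 3 of the 7. With set as a term 3 of the 7 were negative and 0 were called by edgeR.

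AT5G22920 and AT3G15450 had the largest positive changes among the genes named for the second set, 2.09 ± 0.43 and 2.07 ± 0.41 (edgeR adjusted p = 0.0124 and 0.00936). AT3G15450 was at 48.9, 53.1, 22.8 and 22.6 CPM in wt col-0 and 114, 166, 182 and 156 CPM in wt21 in the second set. The first set had it at 489, 433, 133 and 74.0 CPM in wt col-0 and 174, 180, 277 and 303 CPM in wt21. Within the first set, replicates 1 and 2 of wt col-0 were far above replicates 3 and 4, while in wt21 replicates 3 and 4 were the higher pair. DRM1 and AT5G22920 split the first set in the same way, so the spread within first-set wt col-0 was wide for these genes.

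**Figure D4:**
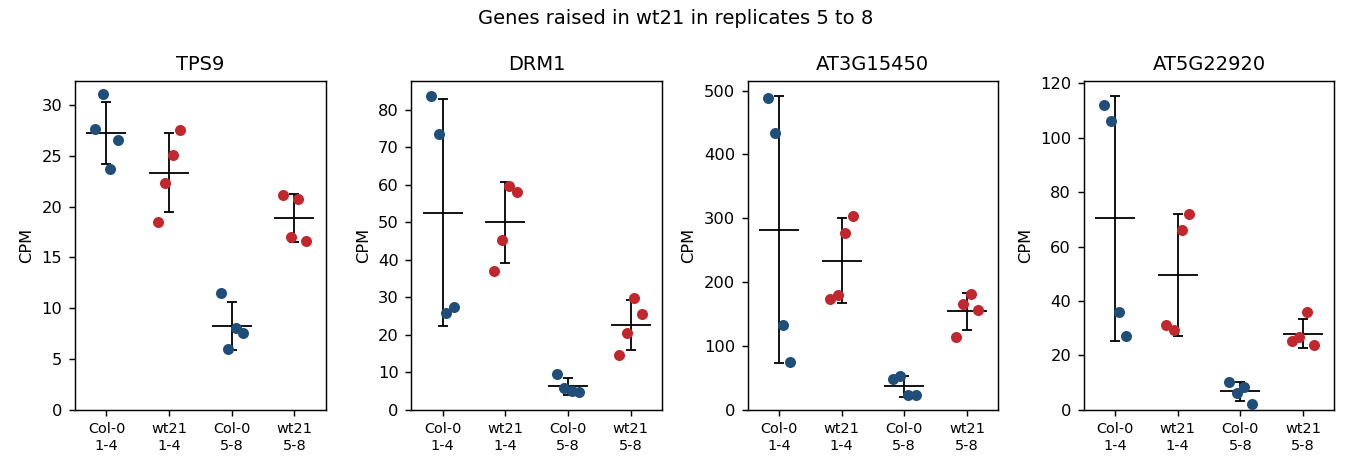
Level in CPM (vertical axis, from 0) of TPS9, DRM1, AT3G15450 and AT5G22920 in each library, by wild type and replicate set (horizontal axis). Points are libraries, horizontal bars are means and error bars SD (n = 4), and second-set wt col-0 lies below second-set wt21 for each gene.

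Light signalling and hormone genes were also among the second-set calls. CRY2, a blue light receptor, was at 10.7 to 19.3 CPM in wt col-0 and 22.8 to 29.2 CPM in wt21 (0.82 ± 0.15, edgeR adjusted p = 0.00355). FHY1, which carries phytochrome A into the nucleus, changed by 1.20 ± 0.25 (adjusted p = 0.0147). BBX27, a B-box protein, and DFL1, which conjugates auxin to amino acids, were higher by 1.65 ± 0.20 and 1.20 ± 0.14. Both also differed between the sets (1.58 ± 0.27 and 1.16 ± 0.20, adjusted p = 0.0185 for each). Of 12 listed auxin response genes tested, 0 were called by edgeR in either set or for the difference between the sets. In the second set 9 were positive (median 0.11, 2 with an unadjusted p under 0.05). In the first set 11 were negative (median -0.37, 5 with an unadjusted p under 0.05), against 49.4% of all features. The difference was positive for 10 (median 0.73, 6 with an unadjusted p under 0.05), against 51.1% of all features.

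Genes lower in second-set wt21 included several transcription factors. MYB4, a repressor of phenylpropanoid genes, was at 14.3 to 27.6 CPM in wt col-0 and 6.13 to 8.49 CPM in wt21 (-1.41 ± 0.19, edgeR adjusted p = 0.000208). MYB111, an activator of flavonol synthesis, changed by -1.86 ± 0.32 (adjusted p = 0.0033). TOE1 and SMZ, AP2-like repressors of flowering, changed by -0.79 ± 0.13 and -1.34 ± 0.25 and were 2 of 6 such genes called, a list formed after values were seen. The share of all features called lower in the second set was 0.316%. AIF1, a bHLH antagonist of brassinosteroid responses, changed by -0.99 ± 0.16. For MYB4, TOE1 and AIF1, second-set wt col-0 was above all other libraries.

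The flavonoid and anthocyanin genes, a list also formed after values were seen, had 1 call within a set. In the first set 12 of 13 had a negative change (median -0.68) and 0 were called by edgeR (5 had an unadjusted p under 0.05). In the second set 10 of 13 were positive (median 0.16), and MYB111 was the 1 that was called. Of all features, 49.4% were negative in the first set, and 50.4% were positive and 0.316% called lower in the second. The difference between the sets was called for 0 of the 13 by edgeR (5 had an unadjusted p under 0.05). Groups without a call by edgeR in either set were the circadian clock, heat shock, touch, wound and cold response, abscisic acid, salicylic acid, flowering time, shoot meristem, cell division and gene silencing lists, and the auxin response list given above. The number of members with an unadjusted p under 0.05 in the second set was 4 of 17 for the clock and 2 of 7 for heat shock. It was 3 of 12 for touch, wound and cold, 2 of 8 for abscisic acid and 0 of 8 for salicylic acid. Flowering time had 0 of 11, the meristem 1 of 12, cell division 2 of 12 and gene silencing 0 of 17, against 1963 of the 16133 features tested. In the first set abscisic acid had 4 of 8, touch, wound and cold 3 of 12 and gene silencing 0 of 17. Each of the remaining lists named here had 1, against 934 of all features.

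Transposable elements took a share of 0.122% to 0.151% in first-set wt21 and 0.120% to 0.154% of counts in first-set wt col-0, against 0.120% to 0.140% and 0.140% to 0.167% in the second set. The set-adjusted difference was -0.0152 percentage points (two-sided exact permutation test within sets, p = 0.0327, adjusted over 4 shares 0.131). It passed the threshold without wt col-0 replicate 3 (-0.019, adjusted p = 0.0261) or without wt21 replicate 3 (-0.0185, adjusted p = 0.0359). Chloroplast genes took 2.38% to 13.4% of counts, and their share did not pass the test (1.42 percentage points, adjusted p = 0.296).

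The features called in the second set were then read in the first, which shares no library with it. Both sets share 1 estimate of spread per feature, however, so first-set p-values are not independent of how these features were chosen. Of the 142 higher in wt21, 92 (64.8%) had a positive first-set change, against 50.6% of all features, and 19 of them had an unadjusted p under 0.05, against 2.77% of all features in that direction. Their median change was 0.77 in the second set and 0.08 in the first. Of the 51 lower in wt21, 27 (52.9%) had a negative first-set change, against 49.4% of all features, and 4 of them had an unadjusted p under 0.05, against 3.02% of all features in that direction. Their median went from -0.87 to -0.003.

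**Figure D5:**
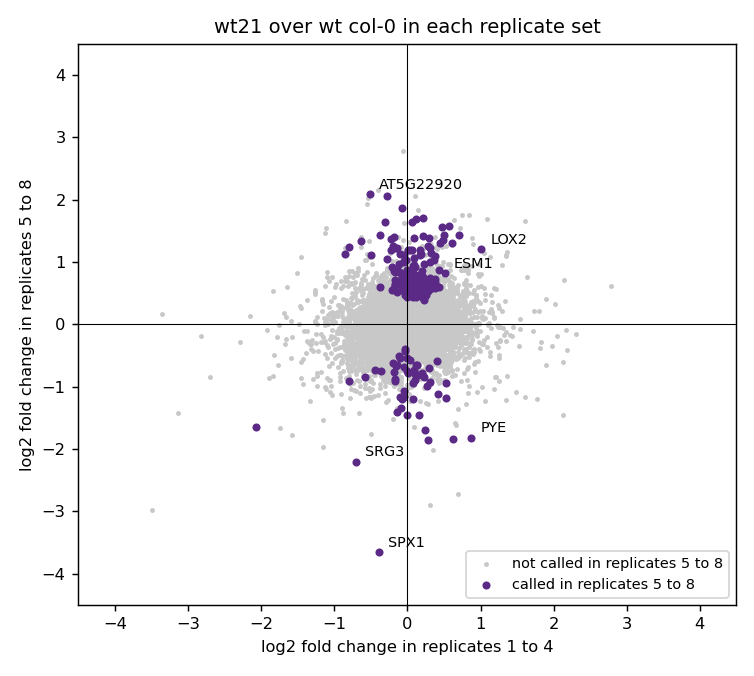
log2 fold change of wt21 over wt col-0 in replicates 1 to 4 (horizontal axis) and in replicates 5 to 8 (vertical axis) for 16133 features, with the 193 called in replicates 5 to 8 in purple. Most purple points lie near 0 on the horizontal axis, LOX2 and ESM1 are positive on both axes, and 14 features outside the plotted range of 4.5, 0 of them called, are not shown.

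The libraries were also placed relative to the first set over those 193 features. With each feature signed by its second-set direction, the mean log2 distance from the first-set mean was -0.05 to 0.07 in the first-set libraries of both wild types, -0.46 to -0.18 in second-set wt21 and -1.44 to -0.99 in second-set wt col-0. The first-set libraries centre on that mean by construction, since distances were taken from it. The gap between the second-set groups follows from how the features were chosen and is no test. Second-set wt21 was nearer than second-set wt col-0 to the first-set mean for 181 of the 193 (93.8%) and for 55.3% of all features. The 193 were chosen for a gap between these 2 groups and the other features were not. The shares are therefore not alike and are no test either, nor are the 193 features independent observations.

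Some first-set differences lie between pairs of features whose counts trade off from library to library. Whether the members share reads was not tested. The smallest first-set p-values in edgeR belonged to ESM1, AT14A (AT3G28290) and AT3G49110 among those higher in wt21, and to AT2G41410, AT4G37800 and AT4G36988 among those lower, with an adjusted p of 0.201, so none was called. AT14A had 0 counts in all first-set wt col-0 libraries and 57, 47, 0 and 77 in wt21. AT3G28300 had 82, 117, 49 and 44 counts in wt col-0 and 0, 0, 65 and 0 in wt21. Summed, the pair was at 8.05 to 17.5 CPM in wt col-0 and 8.53 to 17.1 CPM in wt21, which overlap. AT4G36988 and AT4G36990 traded counts in the same manner, with 16 to 30 and 0 in first-set wt col-0 against 0 and 17 to 25 in wt21, and sums of 2.63 to 4.49 and 3.64 to 5.71 CPM. In all 8 first-set libraries 1 member of each pair was at 0, whereas the second set had libraries with fractional counts in both.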

How the data were processed

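Each of 16 libraries was measured once by Smart-seq3 RNA sequencing, 4 per wild type and replicate set. The authors deposited a table of estimated counts without scaling. Fractional values made up 6.26% of those above 0, and all were rounded before testing. Per the submitters' processing notes, the build was TAIR10 and DESeq2 was used. Aligner, counter, annotation, use of strand and of molecular identifiers are not given in the sources used here, so features that overlap or nearly match are uncertain. Names came from RefSeq assembly TAIR10.1, which matched 277 of 285 list members, and so did the promoter sequences.

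Tests used R 4.3.3 with edgeR 4.0.16 (filterByExpr by genotype and set, TMM factors, glmQLFit and glmQLFTest, Benjamini-Hochberg over all features), checked on simulated data. The set-adjusted fit had genotype and set as terms, and values within a set and between sets came from 1 fit with a mean per genotype and set over the 16 libraries. Reporter sequences stayed out of totals and tests. limma 3.58.1, DESeq2 1.42.0, other filters, scalings, depths and sample choices were alternatives. Shares of counts were compared by exact permutation within sets. Summaries used Python 3.11.15. All 56 pairs of replicates within a wild type differed by more than sampling noise (chi-square per degree of freedom 3.04 to 136). Intervals and floors cover counting error only.

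The comparison, lists and members were chosen with earlier results of these data known. Genes named are the 12 calls of smallest p in each direction with set as a term and in the second set, the 6 in each direction for the difference between sets, or the 3 of smallest p where none was called, together with AGO and DDM1 genes, called list members, up to 4 others per list and called neighbours. The members of the jasmonate, trehalose phosphate synthase, flavonoid, AP2-like, photosystem and ATG8 lists, and AT5G22920, AT3G15450, CRY2, FHY1 and AT2G34620, were chosen after values were seen. Replicate numbers did not pair libraries (correlations of same-numbered libraries -0.181 to 0.0923, 0 of 8 over 0.1).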

Additional observations from a re-analysis of the deposited data

Results flagged for a closer look

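In groups of 4 libraries, 13 of 288 groups of named genes (4.51%) had a library set apart by a gap to its nearest neighbour, and chance flags about 5% of groups. In wt col-0 replicate 8 LHCB2.1 (678 CPM), LHCB2.2 (535 CPM), PSAH2 (516 CPM) and AKINBETA1 (5.37 CPM) were low and AT2G41410 (47.5 CPM) was high within the second set. In the first set LHCB2.3 was low in wt21 replicate 3 (721 CPM) and high in wt col-0 replicate 3 (960 CPM), and PSBO2 was set apart in wt21 replicate 3 (467 CPM). The remaining cases, all in the first set, were AT1G75460 in wt21 replicate 1 (25.1 CPM), AT1G75490 in wt21 replicate 2 (2.36 CPM), PAP17 and AT5G16650 in wt col-0 replicate 1 (1.82 and 44.8 CPM) and AT5G48490 in wt col-0 replicate 4 (114 CPM).

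The wt21 effect differed between the sets, by edgeR's test of the difference itself, for 10 features. The log2 fold change in the second set minus that in the first was positive for AT5G48490 (1.15), TPS9 (1.42), BBX27 (1.58), DFL1 (1.16), AT4G01330 (1.59), AT4G33666 (1.62), AT1G75490 (1.98) and AT2G34620 (1.01). It was negative for PYE (-2.69) and G3Pp1 (-1.93). AT5G48490 was at 41.8 to 55.7 CPM in second-set wt col-0 and 89.1 to 120 CPM in second-set wt21, against 109 to 149 CPM over both wild types in the first set.

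The mCherry reporter sequence had 34 counts in wt21, in 7 of 8 libraries, and 0 in wt col-0. Only 3 of the 8 wt21 libraries had over 3 counts, replicates 2, 5 and 8 with 8, 6 and 12, and replicate 3 had 0. The other reporter, Clover, had 0 in all libraries.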

How the results depend on the processing

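None of the named calls (31 of the 34 with set as a term, 67 of the 193 in the second set and the 10 for the difference) changed direction under the alternatives run. The counts of calls with set as a term, in the first set, in the second set and for the difference between sets were 34, 0, 193 and 10. They were 148, 41, 351 and 103 with no filter on low counts, and 176, 12, 350 and 54 by DESeq2. limma voom called 65 with set as a term and 290 in the second set, and robust quasi-likelihood called 58 with set as a term and 17 for the difference. With all 44 libraries in the fit 108 were called in the second set and 6 for the difference. Without the set term 0 were called, and the first set fitted alone gave 4. The same replicate numbers stand for no stated pairing and the libraries share only a number. With the replicate block the counts were 7, 0, 73 and 0, and replicate 7 alone correlated best with its own number (1 of 8).

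Leaving out 1 library gave 8 to 116 calls with set as a term, 0 to 3 in the first set, 78 to 288 in the second and 1 to 43 for the difference. With set as a term the count was 17, 22, 83, 14, 15, 11 and 12 without wt col-0 replicate 1, 2, 3, 5, 6, 7 and 8, and 18, 20, 116, 10, 8 and 11 without wt21 replicate 1, 2, 3, 6, 7 and 8. In the second set it was 124 and 78 without wt col-0 replicate 6 and 8, and 118, 101 and 92 without wt21 replicate 6, 7 and 8. For the difference it was 19, 26, 43, 3 and 1 without wt col-0 replicate 3, 4, 5, 6 and 8, and 1, 3 and 3 without wt21 replicate 1, 7 and 8. The transposable element share differed by -0.019 to -0.0124 percentage points. Without both libraries numbered 3, a choice made after seeing the data, the counts were 189, 2, 210 and 11. The cause of these changes was not tested. Of the named calls, 33 of 67 in the second set passed under every alternative, against 0 of 31 with set as a term, each of which was lost at least without that term, and 0 of 10 for the difference.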

Other observations

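ESM1 varied more among the mutant groups than between the wild types. In CPM of the library total, without TMM factors, wt21 had 59.3 to 64.6 and wt col-0 had 38.2 to 53.8. It was at 333 to 416 in ago4, 318 to 458 in ago4ago9, 148 to 224 in ago4ago5ago9 and 74.9 to 211 in ddm1. In ago5 and ago5ago9 it was at 36.9 to 73.3 and 33.2 to 41.7. Within ago9 alone it ran from 43.7 to 374 over 4 libraries.

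AT3G16670 and AT3G16660, higher in wt21 than in wt col-0, were near 0 in ddm1, at 0 to 0.942 and 0 to 0.471 CPM of the library total. On that scale AT3G16670 ran from 7.84 to 19.6 in wt col-0 and reached 38.9 in wt21.

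mCherry counts were also present in 6 of the 7 mutant groups, from 4 in ago9 to 44 in ddm1, and 0 in ago4ago9. In ago5 and ago9, 0 libraries had over 3 counts.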
